A study of Homo sapiens with 24 samples.

Results

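Expression of 10 genes that mark epithelial and mesenchymal cell identity was described in PC3 and LNCaP cells exposed to Siomycin A or to its solvent DMSO. The genes were CDH1, EPCAM, KRT8, KRT18, KRT19, VIM, CAV1, CD44, SNAI2 and ZEB1, taken by symbol from the array's probe list with every probe that gave a signal. Of 13344 genes that could be tested in the study, 9 belong to this set. The 10th, ZEB1, was not above background on any array. Both lines are established human prostate cancer lines: PC3 came from a bone metastasis and grows without androgen, and LNCaP came from a lymph node metastasis and responds to androgen. Siomycin A, a thiopeptide antibiotic, is known as a proteasome inhibitor that lowers the transcription factor FOXM1.

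The 8 groups were PC3 cells with Siomycin A for 24 h, PC3 cells with DMSO for 24 h, PC3 cells with Siomycin A for 48 h, PC3 cells with DMSO for 48 h, and the same 4 groups of LNCaP cells. There were 3 Illumina bead arrays per group and 24 altogether. The labels do not state that replicates were separate cultures, so the p-values reflect only how far these arrays spread, and that spread may be technical. The treatment protocol gives the dose as 0.5 µM and the sample titles as 5 µM, and the dose is left unsettled here. Per the growth protocol the lines were kept in different media, RPMI for PC3 and Ham's F12 for LNCaP, so line and medium cannot be told apart.

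Epithelial cells hold to each other through E-cadherin (CDH1) and build their cytoskeleton from keratins, whereas mesenchymal cells build it from vimentin (VIM). In the epithelial to mesenchymal transition, repressors such as ZEB1 and SNAI2 (also called Slug) bind E-box motifs in the promoters of epithelial genes and lower their transcription. In prostate cancer lines this axis is known to set lines apart, and androgen-independent lines often carry mesenchymal genes beside keratins.

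Mean intensity per array ran from 314.4 to 498.8, with backgrounds of 97.7 to 116.4, and 17010 to 20101 of 47318 probes lay above background. The replicate 3 array of PC3 Siomycin 48 h had the lowest mean intensity and the fewest probes above background. It and the replicate 1 array of LNCaP Siomycin 24 h were put in doubt by an earlier analysis of these data, and results that change without both are given below. Of 3 LNCaP markers tested, all were lower in PC3 DMSO, and of 5 PC3 markers all were higher, at both times. Some were not at background in the other line. The androgen-driven proteases KLK2 and KLK3 were above background on 0 and 1 of 12 PC3 arrays and on 12 LNCaP arrays each, but TMPRSS2 on 10 PC3 arrays and 12 LNCaP arrays, at mean log2 levels of 5.47 and 11.30. AXL, ANXA1 and CAV2 were above background on 12 PC3 arrays and 0 LNCaP arrays, PLAU on 12 and 4, and MET on 12 and 12. Markers of other cell types a culture could hold were dim throughout. Of 8 fibroblast genes, PDGFRB and THY1 were above background on 0 arrays, and the others on 1 to 9 PC3 arrays and 1 to 6 LNCaP arrays with mean levels under 5.2, the most for COL1A1 (5.19 in PC3 and 5.14 in LNCaP). Of 4 leukocyte genes, PTPRC and CD3E were above background on 0 arrays, CD14 on 10 PC3 and 2 LNCaP arrays (5.41 and 5.00), and LYZ on 3 and 0. None of the 4 fibroblast genes tested was called in any comparison by limma's test. LYZ was higher in PC3 at 48 h, at 5.15 ± 0.36 with Siomycin (2 of 3 arrays above background) and 4.63 ± 0.01 with DMSO (0 of 3), with an adjusted p of 0.0089 in limma's fit, and its part in the results was not tested.

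Levels below are background-corrected, quantile normalized log2 intensities of 1 probe per gene, the brightest kept one, and a gene said to be above or below background was so with that probe. Other probes are described further on. Levels are compared between samples for the same probe, never between genes, since each probe has its own brightness. A difference was called where limma's moderated test gave an adjusted p under 0.05 after Benjamini-Hochberg adjustment over all 13344 genes. Errors of log2 differences are standard errors (SE), and errors of means are standard deviations (SD) over n = 3 arrays. These are bulk cultures, in which fewer cells expressing a gene and less RNA per cell cannot be told apart.

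**Figure D1:**
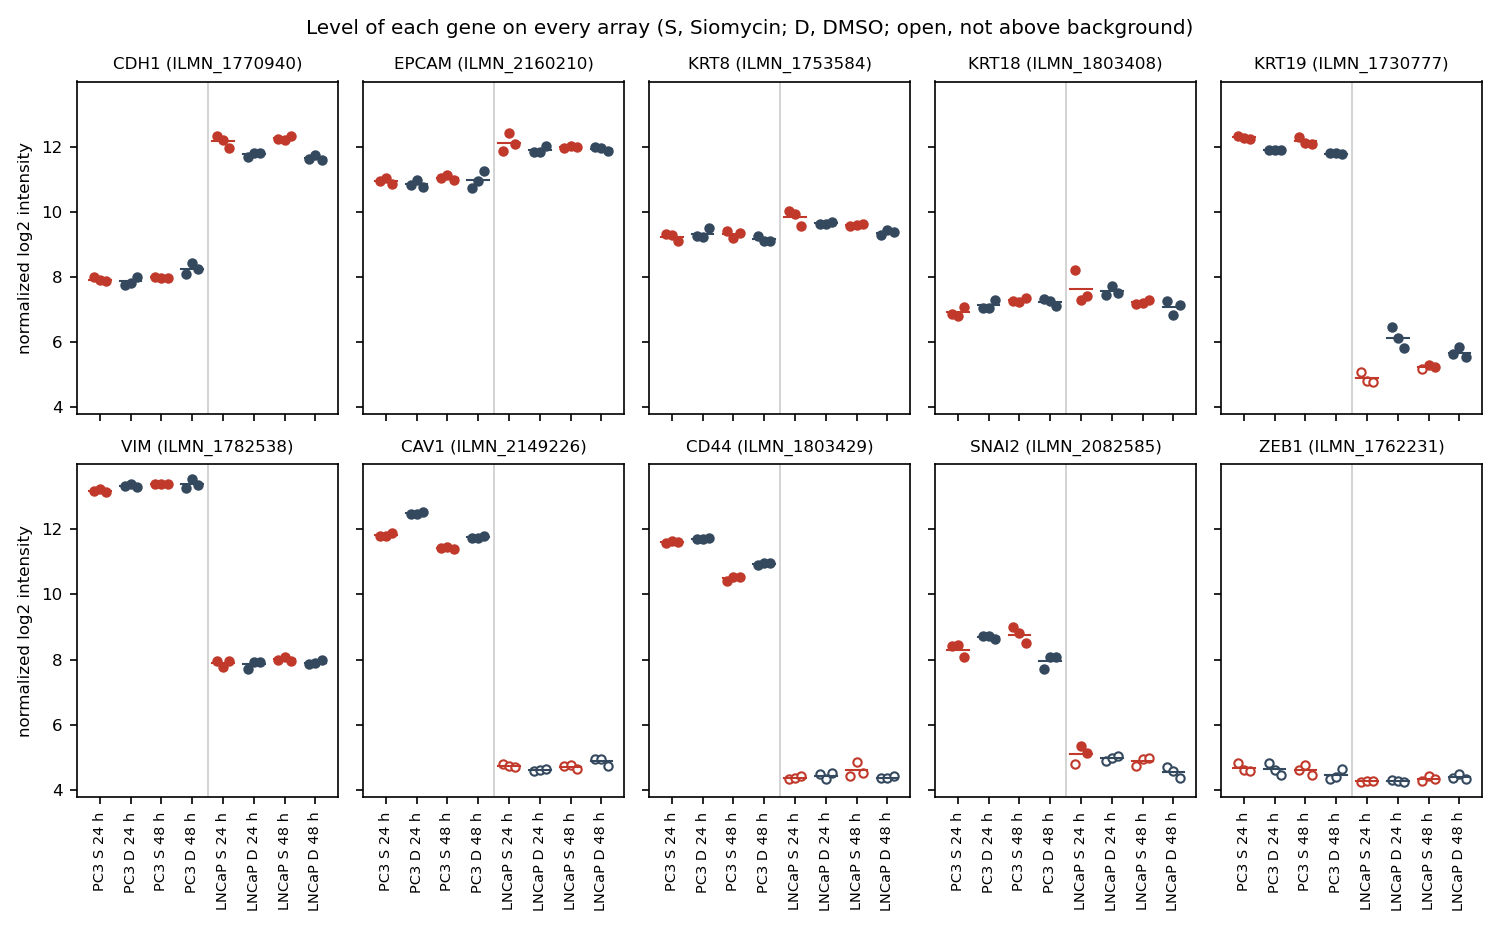
Normalized log2 intensity of the probe that stands for each of the 10 genes on all 24 arrays (points, arrays; short lines, means of 3 arrays; red, Siomycin; dark blue, DMSO; open points, not above background). CDH1 and EPCAM lie lower in PC3 than in LNCaP, KRT19, VIM, CAV1, CD44 and SNAI2 lie higher, and all ZEB1 points are open, with group means between 4.28 and 4.67.

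Among the epithelial genes without Siomycin, CDH1 and EPCAM were lower in PC3 and KRT19 was higher. CDH1 (probe ILMN_1770940) had log2 levels of 7.77, 7.82 and 8.0 on the PC3 DMSO arrays at 24 h, against 11.69, 11.81 and 11.81 on the LNCaP DMSO arrays. That was a 15-fold lower signal in PC3 (log2 difference -3.90 ± 0.10 SE, adjusted p = 2.2e-18), and at 48 h it was 10.5-fold lower (-3.39 ± 0.10, adjusted p = 2.3e-17). EPCAM (ILMN_2160210), an adhesion molecule of epithelial cells, averaged 10.85 ± 0.11 in PC3 DMSO and 11.90 ± 0.10 in LNCaP DMSO at 24 h, a difference of -1.05 ± 0.12 (adjusted p = 2.5e-07). At 48 h the EPCAM difference was -0.97 ± 0.12 (adjusted p = 7e-07). No CDH1 or EPCAM array of PC3 reached the LNCaP arrays, so the surface adhesion genes were present in both lines and lower in PC3.

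Of the keratins, KRT19 went the other way from those adhesion genes, while the brightest probes of KRT8 and KRT18 were called lower in PC3 at 24 h alone. KRT19 (ILMN_1730777), a small keratin of simple epithelia, had levels of 11.91, 11.90 and 11.89 in PC3 DMSO at 24 h, against 6.47, 6.12 and 5.81 in LNCaP DMSO. It was 54.3-fold higher in PC3 at 24 h (5.76 ± 0.12, adjusted p = 2.8e-19), and then 68.6-fold higher at 48 h (6.10 ± 0.12, adjusted p = 1.2e-19). KRT8 and KRT18 form the keratin pair of luminal epithelium, and their genes stand next to each other on chromosome 12 with 0 protein-coding genes between them in RefSeq's GRCh38.p14 annotation. KRT8 (ILMN_1753584) averaged 9.32 ± 0.15 in PC3 DMSO and 9.65 ± 0.05 in LNCaP DMSO at 24 h (difference -0.32 ± 0.10, adjusted p = 0.011), and its difference of -0.21 ± 0.10 at 48 h did not pass (adjusted p = 0.088). KRT18 (ILMN_1803408) averaged 7.13 ± 0.15 and 7.56 ± 0.15 in the same groups at 24 h (-0.43 ± 0.17, adjusted p = 0.035), and at 48 h its difference of 0.15 ± 0.17 did not pass (adjusted p = 0.48). The KRT18 call at 24 h was lost without PC3 DMSO replicate 1 or 2 or LNCaP DMSO replicate 2 or 3 (adjusted p from 0.052 to 0.13), and that of KRT8 without PC3 DMSO replicate 2 (adjusted p = 0.053). KRT18's second probe (ILMN_1730848) read lower in PC3 DMSO than in LNCaP DMSO at both times, without overlap of arrays. It averaged 5.77 ± 0.12 and 7.26 ± 0.11 at 24 h, and 5.95 ± 0.20 and 6.61 ± 0.10 at 48 h. The line difference of KRT18 thus depended on the probe. The RefSeq table names 52 pseudogenes of KRT8, 68 of KRT18 and 5 of KRT19, and whether the probes also bind their transcripts was not tested.

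The mesenchymal and surface genes were all higher in PC3. VIM (ILMN_1782538), the filament of mesenchymal cells, had levels of 13.32, 13.38 and 13.28 in PC3 DMSO at 24 h, against 7.72, 7.93 and 7.94 in LNCaP DMSO. This was a 44.0-fold higher signal in PC3 at 24 h (5.46 ± 0.08, adjusted p = 5.5e-22), and then 44.7-fold at 48 h (5.48 ± 0.08, adjusted p = 5.7e-22). CAV1 (ILMN_2149226), the coat protein of caveolae, had 12.46, 12.48 and 12.52 in PC3 DMSO at 24 h and this probe was not above background on any of the 12 LNCaP arrays, so its signal was at least 209.3-fold higher in PC3 (adjusted p = 2.4e-25). At 48 h the bound for CAV1 was at least 116.0-fold (adjusted p = 1.9e-24). CD44 (ILMN_1803429), the hyaluronan receptor, had 11.69, 11.71 and 11.72 in PC3 DMSO at 24 h and this probe was likewise above background on 0 LNCaP arrays. Its signal was at least 121.9-fold higher in PC3 at 24 h (adjusted p = 2.9e-23), and then at least 71.3-fold at 48 h (adjusted p = 1.1e-22). Such a bound divides the bright group's mean by the dimmest signal that still counted as above background on each dim array, or by the dim signal itself where that is higher. In each of these genes the lines were separated by a gap far wider than the spread within either line. These folds and bounds hold for the brightest probe, and the second probes gave other gaps. In PC3 DMSO and LNCaP DMSO at 24 h, CAV1's second (ILMN_1687583) averaged 9.40 ± 0.06 and 5.03 ± 0.19. CD44's (ILMN_2348788) averaged 8.81 ± 0.17 and 4.60 ± 0.22, and VIM's (ILMN_2058251) 12.70 ± 0.10 and 4.87 ± 0.24. Of these, the CD44 and VIM probes were below background in LNCaP DMSO.

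Of the repressors, SNAI2 gave a signal and ZEB1 did not. SNAI2 (ILMN_2082585) had levels of 8.73, 8.73 and 8.64 in PC3 DMSO at 24 h, and this probe was above background on 0 of 3 LNCaP DMSO arrays at either time. It was at least 13.2-fold higher in PC3 at 24 h (adjusted p = 9.6e-15), and then at least 9.05-fold at 48 h (adjusted p = 4e-14). The second SNAI2 probe (ILMN_1655740) did read above background in LNCaP, with means of 7.76 ± 0.04 in PC3 DMSO and 5.77 ± 0.14 in LNCaP DMSO at 24 h (1.99 ± 0.13, adjusted p = 2.4e-11 over all kept probes), so the size of the gap depended on the probe. ZEB1 has a single probe here (ILMN_1762231), with group means between 4.28 and 4.67, all below background. Nothing can be said of its level from these arrays beyond that bound.

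In all, 9 of 9 genes differed between the lines in DMSO at 24 h, where 60.9% of all genes did, and 7 of 9 at 48 h, where 62.5% of all genes did. The median log2 difference over the 9 genes was 3.72 at 24 h, against 0.010 over all genes, with 5 of the 9 higher in PC3 and 4 lower. That median is the fitted value of SNAI2's brightest probe, below background in LNCaP DMSO, and does not give the size of a typical line difference.

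The promoters of CAV1, CD44 and VIM are shown because the lines differ widely in these genes and because CAV1 and CD44 fell together with time in PC3 DMSO while VIM did not change detectably. The RefSeq promoter table (GRCh38.p14) held 5 of the 10 genes: VIM, CD44 and KRT8 with 1 start each, CAV1 with 3 and ZEB1 with 7. The 250 bases before the start are printed from 5′ to 3′, with GC boxes in capitals (GGGCGG, or CCGCCC for the other strand).
CAV1, first start, chr7:116524759-116525008, + strand: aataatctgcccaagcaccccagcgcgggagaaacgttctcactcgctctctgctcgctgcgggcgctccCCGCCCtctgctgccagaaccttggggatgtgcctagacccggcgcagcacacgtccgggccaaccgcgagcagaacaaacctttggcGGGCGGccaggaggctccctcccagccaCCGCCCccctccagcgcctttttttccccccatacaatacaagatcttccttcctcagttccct
CD44, chr11:35138921-35139170, + strand: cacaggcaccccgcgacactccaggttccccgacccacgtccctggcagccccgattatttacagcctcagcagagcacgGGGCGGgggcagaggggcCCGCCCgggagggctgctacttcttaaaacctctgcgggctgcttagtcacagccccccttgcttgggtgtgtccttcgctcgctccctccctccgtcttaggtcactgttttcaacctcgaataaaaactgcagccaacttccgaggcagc
VIM, chr10:17227991-17228240, + strand: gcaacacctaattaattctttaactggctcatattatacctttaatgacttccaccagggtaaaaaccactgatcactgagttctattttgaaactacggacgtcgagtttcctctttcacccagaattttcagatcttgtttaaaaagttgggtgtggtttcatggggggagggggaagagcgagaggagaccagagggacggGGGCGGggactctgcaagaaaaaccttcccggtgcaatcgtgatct
The GC box, the letters that Sp1 family factors are known to bind, occurred 3 times in the first CAV1 window, 2 times in CD44, once in VIM and not in KRT8, and 42.6% of 35116 promoters of the same length hold it. The E-box letters CAGGTG, which ZEB1 and SNAI2 are known to bind, were searched on both strands. They were in none of the windows of VIM, CD44, CAV1 and KRT8 and in 2 of the 7 windows of ZEB1. Of all promoters, 17.5% hold that E-box. The GC box was searched after the values were seen. These matches are descriptions of letters in a window and no evidence of binding.

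Without any Siomycin, CAV1, CD44 and SNAI2 fell and CDH1 rose between 24 h and 48 h in PC3 DMSO cultures. CAV1 had levels of 11.72, 11.75 and 11.80 at 48 h, against 12.46, 12.48 and 12.52 at 24 h (-0.73 ± 0.07, adjusted p = 9.3e-08). CD44 had 10.90, 10.96 and 10.97 at 48 h, against 11.69, 11.71 and 11.72 at 24 h (-0.76 ± 0.09, adjusted p = 1.3e-06). SNAI2 had 7.72, 8.08 and 8.09 at 48 h, against 8.73, 8.73 and 8.64 at 24 h (-0.73 ± 0.15, adjusted p = 0.00083). In none of these genes did the arrays of the 2 times overlap.

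CDH1 had 8.11, 8.43 and 8.24 in PC3 DMSO at 48 h, against 7.77, 7.82 and 8.0 at 24 h (0.39 ± 0.10, adjusted p = 0.0034). That call was lost when arrays were centred on the median of all probes in place of quantile normalization (0.15, adjusted p = 0.58), a setting added after the data were seen. In PC3 DMSO 4 of 9 genes changed with time (1 higher and 3 lower), against 28.3% of all genes. In LNCaP DMSO 0 of 9 changed by limma's test, against 0.547% of all genes, and 5 had an unadjusted p under 0.05. The share of all genes with such an unadjusted p was not counted, so no change is read from these 5. Among those 5, KRT8, KRT18 and KRT19 had lower means at 48 h, with differences of -0.28, -0.48 and -0.45, while the CAV1 and SNAI2 probes that stand for these genes were below background at both times. The second SNAI2 probe was above background on 2 of 3 arrays at 48 h and 3 of 3 at 24 h, with means of 5.16 ± 0.21 and 5.77 ± 0.14 (-0.61 ± 0.13, adjusted p = 0.053 over all kept probes).

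**Figure D2:**
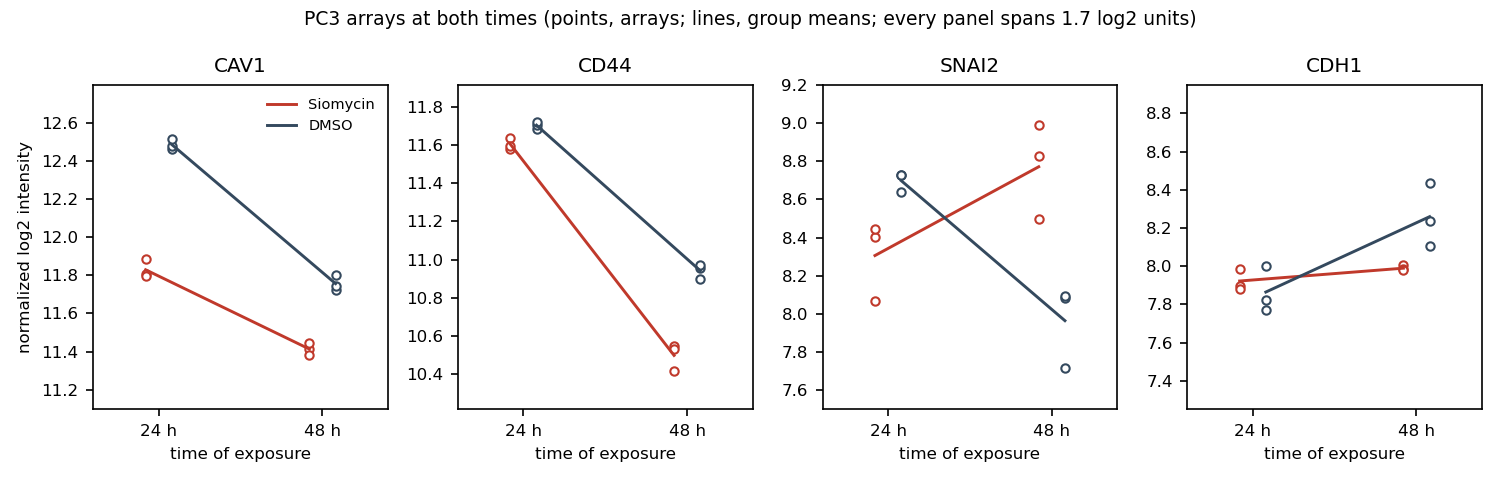
Normalized log2 intensity of CAV1, CD44, SNAI2 and CDH1 in PC3 at 24 h and 48 h (points, arrays; lines join group means; red, Siomycin; dark blue, DMSO; every panel spans the same number of log2 units). CAV1 and CD44 are lower at 48 h with either agent, whereas SNAI2 is higher at 48 h with Siomycin and lower with DMSO.

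In PC3 at 24 h, Siomycin lowered CAV1 and raised KRT19, and left the other 7 genes without a call. CAV1 had levels of 11.80, 11.80 and 11.88 with Siomycin, against 12.46, 12.48 and 12.52 with DMSO, a fold of 0.634 (-0.66 ± 0.07, adjusted p = 7e-07). KRT19 had 12.32, 12.27 and 12.25 with Siomycin, against 11.91, 11.90 and 11.89 with DMSO, a fold of 1.30 (0.38 ± 0.12, adjusted p = 0.03). In both genes all 3 Siomycin arrays lay on one side of all 3 DMSO arrays. That was also so for VIM, CD44 and SNAI2, which were not called. The share of all genes with arrays so separated was not counted in any comparison, so such separation adds nothing to a call. With each of the 6 arrays dropped in turn, the KRT19 effect stayed between 0.36 and 0.40. Its call was lost each time, at adjusted p values between 0.062 and 0.083. Median centring gave 0.32 (adjusted p = 0.13). Of 18 alternatives 10 kept the call and 8 lost it, and the lowest adjusted p was 0.00011. The SE comes from the fit of all 8 groups. KRT19 had SDs of 0.04 and 0.01 in these PC3 groups, against 0.18 and 0.33 in LNCaP at 24 h (Siomycin and DMSO).

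SNAI2 had levels of 8.40, 8.45 and 8.07 with Siomycin and 8.73, 8.73 and 8.64 with DMSO at 24 h. All 3 Siomycin arrays were lower, but the difference of -0.39 ± 0.15 did not pass (adjusted p = 0.067). It passed without the 2 doubted arrays (-0.39, adjusted p = 0.022) and with no background correction (-0.31, adjusted p = 0.013). The other effects were 0.06 ± 0.10 for CDH1 (adjusted p = 0.75), 0.09 ± 0.12 for EPCAM (0.67), -0.09 ± 0.10 for KRT8 (0.61), -0.21 ± 0.17 for KRT18 (0.44), -0.14 ± 0.08 for VIM (0.25) and -0.10 ± 0.09 for CD44 (0.49). For CDH1 the 95% interval was -0.14 to 0.26. So 2 of 9 genes were called at 24 h in PC3, where 23.0% of all genes were (11% higher and 11.9% lower). Their median effect was -0.10, against -0.0036 over all genes.

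In PC3 at 48 h, SNAI2 and KRT19 rose with Siomycin and CD44, CAV1 and CDH1 fell relative to DMSO of the same time. SNAI2 had levels of 8.99, 8.83 and 8.50 with Siomycin, against 7.72, 8.08 and 8.09 with DMSO, a fold of 1.75 (0.81 ± 0.15, adjusted p = 0.00016). CD44 had 10.41, 10.55 and 10.53 with Siomycin, against 10.90, 10.96 and 10.97 with DMSO (-0.44 ± 0.09, adjusted p = 0.00027). CAV1 had 11.41, 11.45 and 11.38 with Siomycin, against 11.72, 11.75 and 11.80 with DMSO (-0.34 ± 0.07, adjusted p = 3e-04). The repressor and the surface genes, which had fallen together in DMSO, thus had effects of opposite sign, with no overlap of arrays in any of them.

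KRT19 had 12.29, 12.12 and 12.07 with Siomycin at 48 h, against 11.79, 11.79 and 11.76 with DMSO (0.38 ± 0.12, adjusted p = 0.017), about the size seen at 24 h. CDH1 had 8.0, 7.98 and 7.98 with Siomycin, against 8.11, 8.43 and 8.24 with DMSO (-0.27 ± 0.10, adjusted p = 0.025). For CDH1 the Siomycin level was close to both 24 h groups (7.92 ± 0.06 with Siomycin and 7.86 ± 0.12 with DMSO), and the DMSO arrays of 48 h were the highest of PC3. The CDH1 call was lost without DMSO replicate 2 (-0.18, adjusted p = 0.16), Siomycin replicate 2 (adjusted p = 0.057) or Siomycin replicate 3 (adjusted p = 0.058), and the KRT19 call without Siomycin replicate 1 (0.31, adjusted p = 0.078). VIM had 13.40, 13.38 and 13.38 with Siomycin, against 13.27, 13.53 and 13.36 with DMSO, a difference of -0.0034 ± 0.08 (adjusted p = 0.98) with a 95% interval from -0.17 to 0.16. Under median centring VIM had the opposite sign and passed (0.42, adjusted p = 0.00061), and CAV1 no longer passed (-0.14, adjusted p = 0.25). EPCAM (0.07), KRT8 (0.17) and KRT18 (0.06) were not called, with adjusted p of 0.71, 0.2 and 0.81.

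In PC3 at 48 h, 5 of 9 genes were called (2 higher and 3 lower), where 45.8% of all genes were (19.5% higher and 26.3% lower), so the share of the identity genes was near that of all genes. With arrays centred on the median of all probes the split of all calls was 844 higher and 4509 lower, against 2598 and 3507 in the main test, and SNAI2 then had 0.38 (adjusted p = 0.19). These effects share the DMSO arrays of 48 h, which had themselves moved. Set against the DMSO arrays of 24 h, SNAI2 with its brightest probe differed by 0.073 (adjusted p = 0.73) and CDH1 by 0.13 (adjusted p = 0.31, the opposite sign). CAV1 and CD44 then had -1.07 and -1.21. Those values include the change of DMSO cells with time (-0.73 and -0.76), so they cannot show a fall with Siomycin. The SNAI2 probes parted here. The second (ILMN_1655740) averaged 8.28 ± 0.04 with Siomycin at 48 h and 7.76 ± 0.04 with DMSO at 24 h, without overlap, a difference that was not tested.

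**Figure D3:**
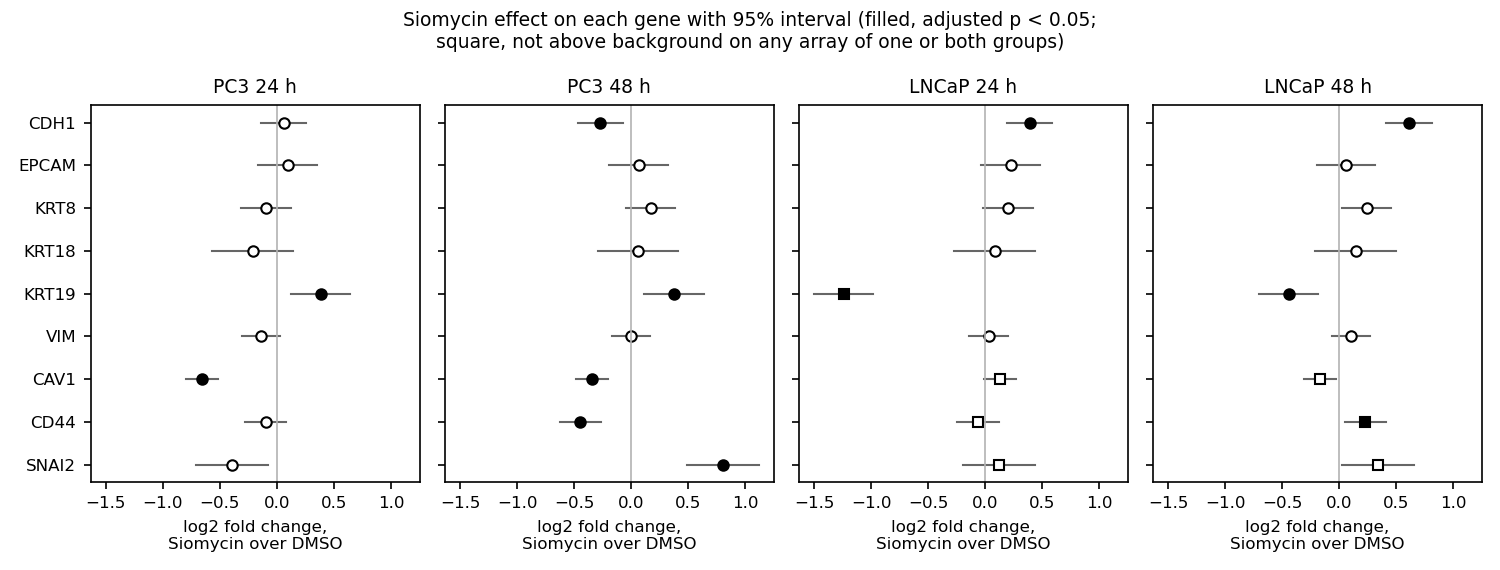
Log2 fold change of Siomycin over DMSO for the 9 tested genes, each by its brightest probe, with 95% intervals, in the 4 comparisons (filled, adjusted p under 0.05; squares, probe not above background on any array of one or both groups). CAV1 lies below 0 at both times in PC3, SNAI2 lies at 0.81 in PC3 at 48 h, and KRT19 lies above 0 in PC3 and below 0 in LNCaP.

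In LNCaP, Siomycin raised CDH1 and lowered KRT19 at both times. CDH1 had levels of 12.31, 12.21 and 11.96 with Siomycin at 24 h, against 11.69, 11.81 and 11.81 with DMSO, a fold of 1.31 (0.39 ± 0.10, adjusted p = 0.0054). At 48 h it had 12.22, 12.22 and 12.34 with Siomycin, against 11.64, 11.73 and 11.58 with DMSO, a fold of 1.53 (0.61 ± 0.10, adjusted p = 3.2e-05). All Siomycin arrays lay above all DMSO arrays at each time. The 24 h call was lost under median centring over kept probes (0.27, adjusted p = 0.095) or over all probes (0.32, adjusted p = 0.27) and with array weights (0.24, adjusted p = 0.062), and at 48 h none of the alternatives run ended it.

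KRT19, low in LNCaP to begin with, had 5.10, 4.81 and 4.77 with Siomycin at 24 h, all below background, against 6.47, 6.12 and 5.81 with DMSO, all above it. The signal was at least 2.36-fold lower (adjusted p = 2.6e-07). At 48 h it had 5.18, 5.29 and 5.24 with Siomycin, of which 2 arrays were above background, against 5.65, 5.86 and 5.53 with DMSO (-0.45 ± 0.12, adjusted p = 0.0071). No array of the Siomycin groups reached the DMSO groups, but near background the size of a difference depends on the correction: with none, the effect at 48 h was -0.15 (adjusted p = 0.087).

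The other epithelial genes did not pass in LNCaP. EPCAM had an effect of 0.22 ± 0.12 at 24 h (adjusted p = 0.23), and its effect at 48 h was 0.06 ± 0.12 (adjusted p = 0.77). KRT8 had 0.20 ± 0.10 at 24 h (adjusted p = 0.2). Its 48 h effect was 0.24 ± 0.10 (adjusted p = 0.081), with arrays at 9.57, 9.60 and 9.64 with Siomycin and 9.28, 9.43 and 9.38 with DMSO. KRT18 had 0.08 ± 0.17 at 24 h (adjusted p = 0.8), where the doubted Siomycin array read 8.21 beside 7.30 and 7.41, and 0.14 ± 0.17 at 48 h (adjusted p = 0.58). VIM had 0.03 ± 0.08 at 24 h (adjusted p = 0.86), and the 48 h effect was 0.10 ± 0.08 (adjusted p = 0.38).

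The brightest probes of CAV1 and CD44 stayed below background on all 12 LNCaP arrays, so no effect is read from them. Of their other probes, CAV1's second (ILMN_1687583) was above background on 3 of 6 Siomycin arrays and 1 of 6 DMSO arrays of LNCaP, and 1 of 2 further CD44 probes (ILMN_1778625) on 1 Siomycin array. CD44's brightest probe did pass the test at 48 h (0.23 ± 0.09, adjusted p = 0.046), with arrays at 4.43, 4.86 and 4.53 with Siomycin and 4.36, 4.36 and 4.43 with DMSO, and the call was lost without the array at 4.86 (0.10, adjusted p = 0.35) or without any DMSO array (adjusted p from 0.062 to 0.11). SNAI2 with its brightest probe was above background on 2 of 3 Siomycin arrays at 24 h and on 0 of 3 DMSO arrays (0.12 ± 0.15, adjusted p = 0.65), and on none of either at 48 h.

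In LNCaP 2 of 9 genes were called at 24 h, where 20.8% of all genes were (10.5% higher and 10.4% lower), and 3 of 9 at 48 h, where 37.4% of all genes were (19.0% higher and 18.4% lower). Of the 3, CD44 was called from a probe below background. Under median centring the split of all calls at 24 h was 858 higher and 1541 lower, against 1396 and 1383 in the main test. The median effect of the 9 genes was 0.12 at 24 h and 0.14 at 48 h, against 0.018 and 0.011 over all genes. The 24 h median is the value of SNAI2, whose brightest probe was below background with DMSO. Without the 2 doubted arrays the count at 48 h was 5, the added genes being CAV1 (-0.17, adjusted p = 0.048) and SNAI2 (0.34, adjusted p = 0.032), both from probes below background at 48 h.

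Whether the effects themselves differed was tested between times and between lines. In PC3 the SNAI2 effect at 48 h exceeded that at 24 h by 1.20 ± 0.21 (adjusted p = 0.00027), the effect being 0.81 at 48 h and -0.39 at 24 h. The CAV1 effect was less negative at 48 h by 0.31 ± 0.10 (adjusted p = 0.02). The CD44 effect was more negative at 48 h by -0.34 ± 0.12 (adjusted p = 0.046), a call that was lost without any 1 of the 12 PC3 arrays. Thus 3 of 9 genes were called for time in PC3, against 25.1% of all genes, and the DMSO change with time enters each of these differences. In LNCaP 1 of 9 was called, KRT19, whose fall was smaller at 48 h by 0.80 ± 0.18 (adjusted p = 0.0067), against 8.90% of all genes. That call was lost when the 12 LNCaP arrays were fitted alone (adjusted p = 0.069). The KRT19 difference includes the Siomycin arrays of 24 h, all below background, and is a fitted value.

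Between the lines, KRT19 moved in opposite directions at both times. Its effect in PC3 exceeded that in LNCaP by 1.63 ± 0.18 at 24 h (adjusted p = 3.3e-06), and the gap at 48 h was 0.82 ± 0.18 (adjusted p = 0.00075). The 24 h value is a fitted one, since KRT19 was below background on all LNCaP Siomycin arrays of that time. CDH1 had effects of opposite sign at 48 h, -0.27 in PC3 and 0.61 in LNCaP, a difference of -0.88 ± 0.13 (adjusted p = 2.3e-05). At 24 h the CDH1 difference of -0.33 ± 0.13 did not pass (adjusted p = 0.11). SNAI2 did not pass at 24 h (-0.51 ± 0.21, adjusted p = 0.12) or 48 h (0.47 ± 0.21, adjusted p = 0.084), and without the 2 doubted arrays it passed at both (-0.67, adjusted p = 0.017 and 0.60, adjusted p = 0.012). These SNAI2 differences are fitted values. In LNCaP the probe was below background on all DMSO arrays at 24 h and on all arrays at 48 h. For CAV1 at 24 h (-0.79 ± 0.10, adjusted p = 1.3e-05) and CD44 at 48 h (-0.67 ± 0.12, adjusted p = 0.00016) the difference includes an LNCaP effect of a probe below background and is a fitted value. In all 2 of 9 genes differed between lines at 24 h, against 14.2% of all genes, and 3 of 9 at 48 h, against 43.2%.

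The order of the groups showed how far line, time and agent each moved a gene. For CAV1 the PC3 groups ran from DMSO 24 h (12.48 ± 0.03) through Siomycin 24 h (11.83 ± 0.05) and DMSO 48 h (11.76 ± 0.04), which overlapped, to Siomycin 48 h (11.41 ± 0.03). For CD44 they ran from DMSO 24 h (11.70 ± 0.02) through Siomycin 24 h (11.60 ± 0.03) and DMSO 48 h (10.94 ± 0.04) to Siomycin 48 h (10.50 ± 0.07), with no overlap between neighbours. For SNAI2 the highest groups, Siomycin 48 h (8.77 ± 0.25) and DMSO 24 h (8.70 ± 0.05), overlapped, as did Siomycin 24 h (8.31 ± 0.21) and DMSO 48 h (7.96 ± 0.22). For CDH1 the LNCaP groups ran from Siomycin 48 h (12.26 ± 0.07) and Siomycin 24 h (12.16 ± 0.18), which overlapped, to DMSO 24 h (11.77 ± 0.07) and DMSO 48 h (11.65 ± 0.08), which overlapped too.

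KRT19 ran in PC3 from Siomycin 24 h (12.28 ± 0.04) and Siomycin 48 h (12.16 ± 0.11), which overlapped, to DMSO 24 h (11.90 ± 0.01) and DMSO 48 h (11.78 ± 0.02). VIM spanned 13.19 ± 0.05 to 13.39 ± 0.13 over the PC3 groups and 7.87 ± 0.12 to 8.01 ± 0.06 over the LNCaP groups. EPCAM spanned 10.85 ± 0.11 to 11.04 ± 0.07 in PC3, where all neighbouring groups overlapped, and 11.90 ± 0.10 to 12.12 ± 0.28 in LNCaP, where they overlapped as well. KRT8 spanned 9.15 ± 0.08 to 9.33 ± 0.11 in PC3 and 9.36 ± 0.08 to 9.84 ± 0.24 in LNCaP. By its brightest probe KRT18 was the gene whose lines were interleaved, with PC3 groups from 6.92 ± 0.14 to 7.29 ± 0.06 and LNCaP groups from 7.08 ± 0.22 to 7.64 ± 0.50.

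For 6 genes more than 1 probe was kept (17 kept probes of 18 listed for the set), and every kept probe was tested over all 25215 kept probes. Among these, 15.0% were called in PC3 at 24 h, 35.6% in PC3 at 48 h, 14.1% in LNCaP at 24 h and 28.4% in LNCaP at 48 h. SNAI2's second probe (ILMN_1655740) moved like the first in PC3 at 48 h, with a mean of 8.28 ± 0.04 with Siomycin and 7.18 ± 0.07 with DMSO (1.11 ± 0.13, adjusted p = 6.2e-07). That probe was above background in most LNCaP arrays, and there it rose at 48 h, with 5.70 ± 0.28 with Siomycin and 5.16 ± 0.21 with DMSO (0.54 ± 0.13, adjusted p = 0.0026). Relative to DMSO of the same time, the rise of SNAI2 at 48 h was thus seen by both probes in PC3 and by one of them in LNCaP. In LNCaP the level of that probe with Siomycin at 48 h did not exceed its mean with DMSO at 24 h (5.77 ± 0.14).

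Probes of KRT18 disagreed. Its brighter probe had no call, whereas ILMN_1730848 rose at 48 h in PC3, with 6.71 ± 0.03 with Siomycin and 5.95 ± 0.20 with DMSO (0.76 ± 0.17, adjusted p = 0.0014), and in LNCaP (0.68 ± 0.17, adjusted p = 0.0044). In LNCaP this probe averaged 7.29 ± 0.30 with Siomycin at 48 h, 6.61 ± 0.10 with DMSO at 48 h and 7.26 ± 0.11 with DMSO at 24 h. CAV1's second probe (ILMN_1687583) fell like the first in PC3 at 24 h (-0.82 ± 0.11, adjusted p = 1.9e-05) but had 0.08 ± 0.11 at 48 h (adjusted p = 0.63), where the first had -0.34. With the mean of both probes CAV1 at 48 h had -0.13 (adjusted p = 0.13). CD44's second probe (ILMN_2348788) had -0.29 ± 0.13 in PC3 at 48 h (adjusted p = 0.095), and the remaining CD44 probe (ILMN_1778625) was above background on at most 1 array of a group. The 48 h calls of CAV1 and CD44 in PC3 therefore rest on the brightest probe of each.

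EPCAM's probes were called singly and not together: ILMN_2160209 rose in PC3 at 48 h (0.68 ± 0.22, adjusted p = 0.019) and ILMN_3249032 in LNCaP at 24 h (0.44 ± 0.13, adjusted p = 0.022), while the brightest was called in neither. VIM's second probe (ILMN_2058251) had -0.0034 ± 0.14 in PC3 at 48 h, close to the first. In LNCaP it was above background on 1 of 12 arrays, where the first was above on all 12, so the 2 VIM probes differ on whether LNCaP has a signal.

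**Figure D4:**
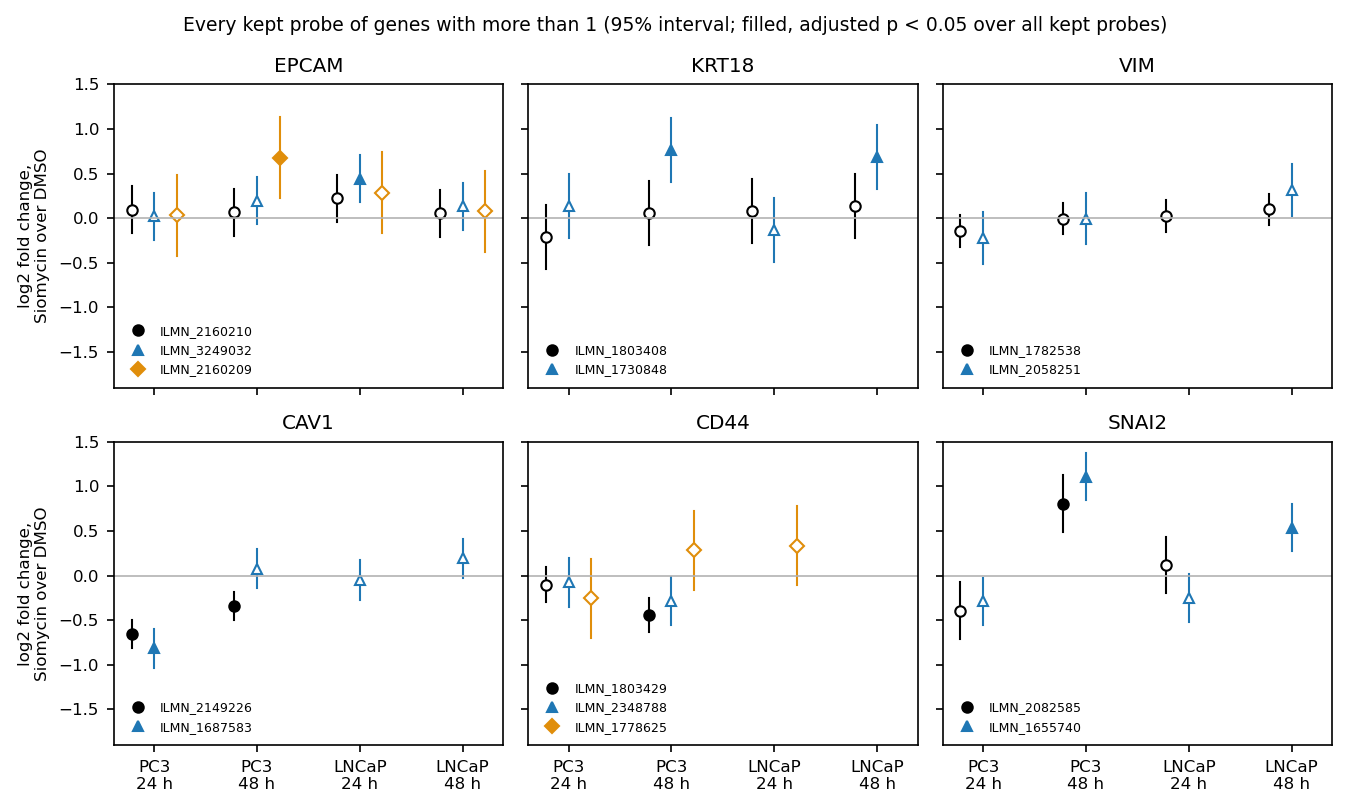
Log2 fold change of Siomycin over DMSO with 95% interval for every kept probe of the 6 genes that have more than 1 (filled, adjusted p under 0.05 over all kept probes; probes below background in both groups are left out). Both SNAI2 probes lie above 0 in PC3 at 48 h, at 0.81 and 1.11, whereas the CAV1 probes part there, at -0.34 and 0.08.

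The wider programme was read from 11 lists of related genes, 149 genes in all, of which 113 could be tested. Another 24 had no probe kept and 12 were not analysed here. The counts below are to be read against all genes, of which 23.0% were called in PC3 at 24 h, 45.8% in PC3 at 48 h, 20.8% in LNCaP at 24 h and 37.4% in LNCaP at 48 h. Of 22 mesenchymal matrix and cytoskeleton genes, 7 were lower and 1 was higher in PC3 at 24 h, where 11.9% of all genes were lower, and 14 were not called. At 48 h 8 were lower, 1 was higher and 13 were not called, where 26.3% of all genes were lower. Their median effect was -0.23 at 24 h and -0.21 at 48 h, against -0.0036 and -0.038 over all genes. CDH11, a mesenchymal cadherin, averaged 8.07 ± 0.08 with Siomycin and 10.42 ± 0.08 with DMSO at 48 h (-2.36 ± 0.09, adjusted p = 1.1e-13). The fibrillar collagen COL5A2 fell by 1.33 at 24 h and by 1.94 at 48 h (adjusted p = 3.1e-05 and 4.9e-08), and THBS1, a matrix glycoprotein, fell by 1.12 at 24 h (adjusted p = 1.7e-08). The exception was the basement membrane collagen COL4A1, at 0.38 and 0.48 (adjusted p = 0.0073 and 0.00045). In LNCaP 0 of 22 were called at 24 h by limma's test, and 3 were higher at 48 h, among them the smooth muscle actin ACTA2 (1.08 ± 0.12, adjusted p = 3.9e-07) and COL6A1 (0.87, adjusted p = 6.3e-06). In DMSO at 24 h 18 of the 22 were higher in PC3 than in LNCaP, with a median log2 difference of 3.13. A fall cannot show in genes near background, and how many of the 22 were so in LNCaP was not counted. These counts therefore do not compare the lines.

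Cell junction genes moved singly. In PC3 the tight junction protein CLDN1 fell by 1.17 at 24 h and by 2.09 at 48 h (adjusted p = 6.3e-05 and 7.8e-09), and cingulin (CGN) fell by 0.99 at 48 h (adjusted p = 1.8e-05). CLDN7 was higher in PC3 at 24 h and 48 h (0.31 and 0.38, adjusted p = 0.046 and 0.007), as it was in LNCaP (0.81 and 0.87, adjusted p = 1.6e-05 and 2.8e-06), and with all-probe centring it had -0.065 in PC3 at 48 h (adjusted p = 0.81). Its call in PC3 at 24 h was lost in 11 of 19 alternatives (adjusted p up to 0.27). Of 12 tight junction and polarity genes, 1 was higher and 1 lower in PC3 at 24 h, 2 and 3 at 48 h, 1 and 0 in LNCaP at 24 h, and 2 and 3 at 48 h. In PC3 that was 2 called at 24 h and 5 at 48 h, no more than the 23.0% and 45.8% of all genes. The LNCaP genes that fell at 48 h included CGN (-0.65, adjusted p = 0.0017) and the tricellular junction gene LSR (-0.63, adjusted p = 0.022), and the polarity gene PATJ rose in both lines at 48 h (0.58, adjusted p = 0.017 in PC3 and 0.82, adjusted p = 0.0018 in LNCaP).

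Of 12 partners of E-cadherin and desmosome genes, 2 were higher in PC3 at 24 h and 5 at 48 h, and none was lower. The other 10 and 7 were not called, so the share called did not exceed that of all genes (23.0% and 45.8%), while 19.5% of all genes were higher at 48 h. Plakoglobin (JUP), which links cadherins to the cytoskeleton, averaged 8.74 ± 0.07 with Siomycin and 7.95 ± 0.02 with DMSO at 48 h (0.80 ± 0.08, adjusted p = 6.1e-08), and had 0.31 at 24 h (adjusted p = 0.007). DSG2, a desmosomal cadherin, rose at 24 h (0.37, adjusted p = 0.028). NECTIN1, an adhesion receptor, was at least 2.31-fold higher at 48 h (adjusted p = 2e-05). In LNCaP 1 was higher and 1 lower at 24 h, and 2 and 1 at 48 h. JUP was the one that rose at 24 h (0.37, adjusted p = 0.0015), the desmosomal cadherin DSC2 fell by 0.64 at 24 h and by 1.46 at 48 h (adjusted p = 0.00026 and 3e-09), and DSP (0.39, adjusted p = 0.027) and the catenin CTNNB1 (0.55, adjusted p = 0.05 as rounded) rose at 48 h. Against the DMSO arrays of 24 h, CTNNB1 had -0.12 (adjusted p = 0.72).

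Epithelial regulators differed within the list. In PC3 1 of 9 was higher and 2 lower at 24 h, and 1 and 4 at 48 h, where 23.0% and 45.8% of all genes were called. ELF3, an epithelial ETS factor, averaged 9.07 ± 0.04 with Siomycin and 6.69 ± 0.07 with DMSO at 48 h (2.38 ± 0.12, adjusted p = 5.3e-12), after 0.58 at 24 h (adjusted p = 0.0015). SPDEF, an ETS factor of prostate epithelium, fell by 1.18 and by 1.55 (adjusted p = 1.6e-06 and 6.6e-09). GRHL2, which is known to maintain CDH1 expression, fell by 0.63 at 24 h (adjusted p = 3.3e-05). Later, at 48 h, when no Siomycin array was above background, it was lower by at least 1.48-fold (adjusted p = 3.8e-07). In LNCaP 3 of 9 were higher and 1 lower at 24 h, and 5 and 0 at 48 h, where 10.5% and 19.0% of all genes were higher. ESRP1, the epithelial splicing regulator, rose by 0.60 at 24 h (adjusted p = 0.023) and to 7.47 ± 0.17 with Siomycin, against 6.12 ± 0.09 with DMSO, at 48 h (adjusted p = 5.9e-06). ELF3 was also higher there (0.41 and 0.56, adjusted p = 0.02 and 0.0011), and SPDEF was lower at 24 h (-0.38, adjusted p = 0.045).

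Among epithelial membrane genes and surface proteases, 2 of 11 were higher and 1 lower in PC3 at 24 h and 4 and 3 at 48 h, while in LNCaP 3 were higher at 24 h and 6 at 48 h, none lower. The 24 h counts lay near the 23.0% of all genes called in PC3 and the 20.8% in LNCaP, and at 48 h 19.0% of all genes were higher in LNCaP. The membrane protease PRSS8 rose in PC3 (0.64 and 0.85, adjusted p = 0.0012 and 1.8e-05), as did CDS1 at 24 h (0.43, adjusted p = 0.0025). MAL2, a protein of apical transport, fell by 0.42 and by 1.31 (adjusted p = 0.00023 and 1.7e-11), and the mucin MUC1 fell by 0.93 at 48 h (adjusted p = 1.2e-06). SPINT1, a protease inhibitor of epithelia, rose in LNCaP (0.83 and 0.97, adjusted p = 0.024 and 0.0045) and was at least 1.62-fold higher in PC3 at 48 h (adjusted p = 0.029). MYO5B, a motor of apical recycling, was at least 1.57-fold higher in LNCaP at 24 h (adjusted p = 0.028) and rose by 0.67 at 48 h (adjusted p = 0.021). Of 4 other keratins tested, KRT7 fell in PC3 by 0.57 and by 0.89 (adjusted p = 0.00013 and 1.4e-07) and KRT80 by 0.89 at 24 h (adjusted p = 0.00032). KRT15 rose in PC3 at 48 h (0.61, adjusted p = 0.018), and 0 of the 4 were called in LNCaP at either time by limma's test. In DMSO at 48 h all 4 were higher in PC3 (median log2 difference 2.17), so a fall in LNCaP may have been hidden near background.

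**Figure D5:**
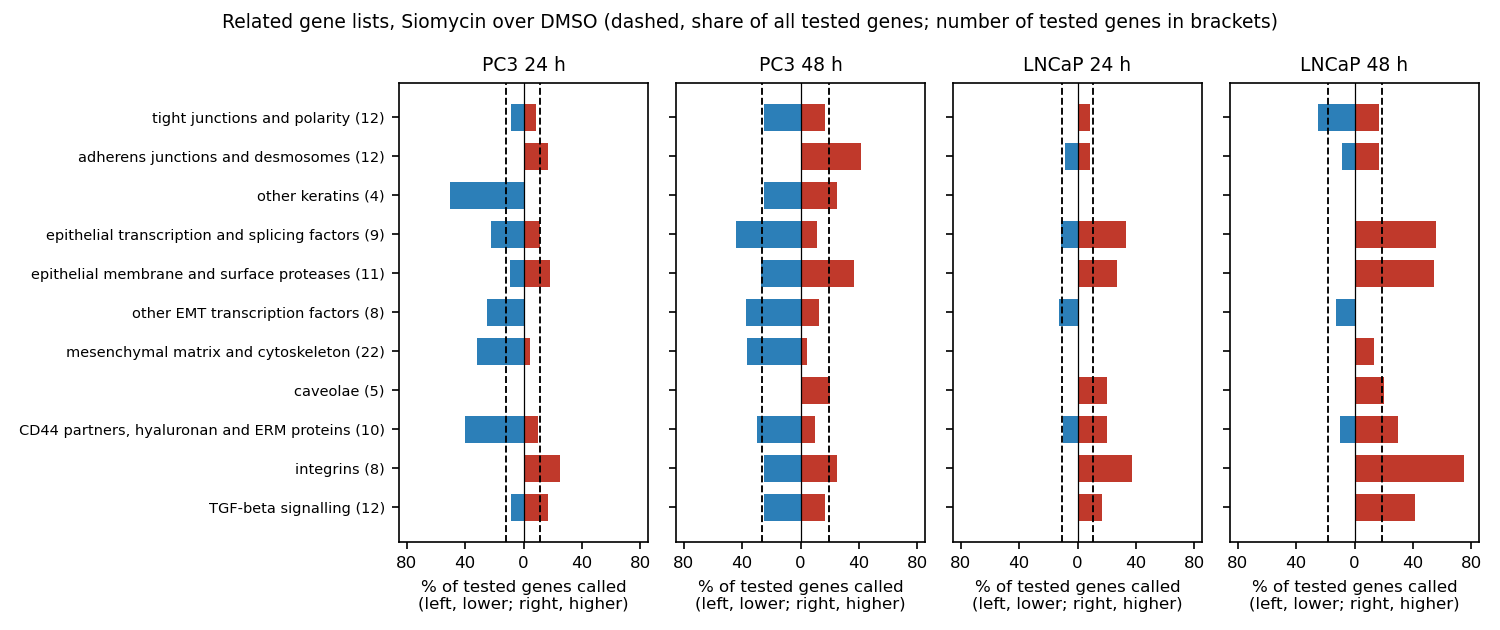
Share of the tested genes of each of 11 related lists called higher (right, red) and lower (left, blue) with Siomycin in the 4 comparisons, with the number of tested genes in brackets and the share of all genes as dashed lines. Mesenchymal matrix genes extend past the dashed line on the lower side in PC3, and 6 of 8 integrins were higher in LNCaP at 48 h.

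Of 8 other factors of the transition, 2 fell in PC3 at 24 h and 3 at 48 h, with 1 higher at 48 h, which was near the 23.0% and 45.8% of all genes called. TWIST1, a repressor of CDH1, averaged 9.14 ± 0.12 with Siomycin and 8.34 ± 0.01 with DMSO in PC3 at 48 h (0.80 ± 0.09, adjusted p = 3.2e-07). TWIST1 in LNCaP fell by 0.55 at 24 h (adjusted p = 0.00012), then by 0.62 at 48 h (adjusted p = 1.3e-05), and it was the single gene of the list called there. The difference of its effects between PC3 and LNCaP at 48 h was 1.42 ± 0.13 (adjusted p = 2.4e-08). SOX9 fell in PC3 by 0.81 and by 1.23 (adjusted p = 0.0071 and 5.8e-05), SOX4 by 0.64 at 24 h (adjusted p = 0.00087), and FOXQ1 was at least 2.52-fold lower at 48 h (adjusted p = 9.8e-09).

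Among 5 caveola genes beside CAV1, 0 were called in PC3 at 24 h by limma's test, and CAV2, the partner of CAV1, rose at 48 h (0.53 ± 0.07, adjusted p = 3.9e-06). PACSIN2, a membrane-bending protein, rose in LNCaP (0.36 and 0.97, adjusted p = 0.0062 and 3.8e-08) and was the single gene of the list called there. Of 10 CD44 partners and hyaluronan genes, 1 was higher and 4 lower in PC3 at 24 h and 1 and 3 at 48 h, and in LNCaP 2 were higher and 1 lower at 24 h and 3 and 1 at 48 h. At 48 h in PC3 the 4 of 10 called did not exceed the 45.8% of all genes. The hyaluronan synthase HAS3 fell in PC3 by 1.52 and by 2.16 (adjusted p = 2.9e-08 and 2.9e-11). HMMR, a hyaluronan receptor that also serves the mitotic spindle, fell in PC3 by 0.77 and by 1.46 (adjusted p = 1e-05 and 3.5e-10) and in LNCaP by 1.54 and by 1.81 (adjusted p = 6e-10 and 3.4e-11). Moesin (MSN), which ties CD44 to actin, rose in PC3 (0.37 and 0.69, adjusted p = 0.0046 and 2.4e-06) and in LNCaP at 24 h (0.36, adjusted p = 0.0061). The receptor kinase MET rose in LNCaP (0.57 and 0.52, adjusted p = 0.019 and 0.018), as did ezrin (EZR) at 48 h (0.28, adjusted p = 0.024).

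Of 8 integrins, 3 were higher in LNCaP at 24 h and 6 at 48 h, where 10.5% and 19.0% of all genes were higher, and none was lower. The other 5 and 2 were not called. Their median effect at 48 h was 0.53, against 0.011 over all genes. In PC3 2 were higher at 24 h, and 2 were higher and 2 lower at 48 h. The fibronectin receptor chain ITGA5 rose in PC3 to 8.44 ± 0.11 with Siomycin, against 6.71 ± 0.23 with DMSO, at 48 h (adjusted p = 2.7e-08), and in LNCaP to 6.93 ± 0.11 with Siomycin, against 5.87 ± 0.20 with DMSO (adjusted p = 2.2e-05). ITGA5 was also higher at 24 h (0.87 in PC3 and 0.56 in LNCaP, adjusted p = 0.00046 and 0.017). The collagen receptor ITGA2 was higher in PC3 (0.79 and 0.39, adjusted p = 8.5e-05 and 0.013), though at 48 h it had -0.027 with all-probe centring (adjusted p = 0.93), and ITGAV fell by 0.50 at 48 h (adjusted p = 0.0091). ITGA3, of the laminin receptor, fell by 0.63 in PC3 at 48 h (adjusted p = 0.0034) and was at least 1.94-fold higher in LNCaP (adjusted p = 4.7e-05), a difference of effects of -1.64 ± 0.23 (adjusted p = 8.8e-06). ITGB5 rose in LNCaP at 24 h (0.36, adjusted p = 0.0046).

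Genes of TGF-beta signalling, a pathway known to drive the transition, were called in both directions in PC3, with 2 of 12 higher and 1 lower at 24 h and 2 and 3 at 48 h, near the 23.0% and 45.8% of all genes called. In LNCaP 2 were higher at 24 h and 5 at 48 h, where 10.5% and 19.0% of all genes were higher, and none was lower. The target ID2 fell in PC3 by 0.87 and by 1.02 (adjusted p = 1.9e-06 and 4e-08), and the receptor TGFBR2 fell by 1.03 at 48 h (adjusted p = 1.7e-05). The inhibitor SMAD7 (0.78, adjusted p = 0.009) and ID3 (0.56, adjusted p = 0.00024) rose in PC3 at 48 h, and ID1 (0.51, adjusted p = 0.0013) and the decoy receptor BAMBI (0.31, adjusted p = 0.031) at 24 h. In LNCaP ID1 rose at both times (0.62 and 0.66, adjusted p = 0.00018 and 3.7e-05), BAMBI at 24 h (0.84, adjusted p = 2.8e-06) and ID3 at 48 h (0.79, adjusted p = 7.1e-06). Set against the DMSO arrays of 24 h, ID1 at 48 h in LNCaP had -0.94 (adjusted p = 4.8e-07), and ID3 had -0.54 in PC3 (adjusted p = 0.00031) and -0.23 in LNCaP (adjusted p = 0.11), so the direction of these 48 h results turned with the control arrays. Of the 97 related calls named here, 42 were lost or turned under at least 1 alternative, and of the 6 that turned, 4 did so with the 24 h DMSO arrays as control and 2 with all-probe centring.

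Genes with the most similar profile over the 8 group means were found by the root mean square difference of centred log2 levels. VIM (SD over groups 2.89) was nearest to NBL1, SLC25A43 and PGM5, at 0.15 to 0.17. CDH1 (SD 2.12) was nearest to STAT3, PLEKHB1 and STEAP2, also at 0.15 to 0.17. CAV1 was nearest to MYOF (0.20), BASP1 (0.29) and CXCL8 (0.29), and CD44 to CXCL8 (0.28), CCN2 (0.28) and CAV1 itself (0.30). KRT19 was nearest to S100A10 (0.32), ANXA1 (0.33) and CNN3 (0.36), and SNAI2 to PEG10 (0.21), GNE (0.21) and CST6 (0.24). For these genes the gap between the lines makes up most of the profile. The flatter profiles of EPCAM (STK3, MRPS27 and CNOT6L, all at 0.08), KRT8 (ZXDC, GLOD5 and IPO8, at 0.07 to 0.08) and KRT18 (HOXB3 at 0.06, SLC38A11 at 0.09 and LGALS12 at 0.10) were matched within the spread between arrays. These values describe likeness over 8 groups and carry no test.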

How the data were processed

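RNA of 24 samples was measured on 1-colour Illumina bead arrays. The deposited table gives a probe intensity, not normalized, and a detection p-value for 47318 probes per array, per the file headers. A second deposited table holds the authors' log2 values, which equalled quantile-normalized log2 intensities without background correction (largest difference 5.12e-09), with a median of 6.91 on each array. The submitters' processing notes name lumi, with its version and the genome build not given in the sources used here. Detection p-values were also small for 3215 to 4216 probes per array that lay below background, so a probe counted as above background where p was under 0.01 and its signal exceeded the median of probes with p over 0.9.

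Intensities were corrected by normexp around that median with an offset of 16, log2 transformed and quantile normalized. Probes above background on at least 3 arrays were kept (25215). Probe names came from the platform annotation: 30111 probes had 1 gene symbol, 8 had several and 17199 had none. The kept probe with the highest mean stood for its gene (13344 genes). limma 3.58.1 in R 4.3.3 fitted 8 group means over all 24 arrays (16 residual degrees of freedom). On simulated arrays drawn from these groups it recovered 41% of 100 log2 changes of 0.5 and 90% of 100 changes of 1, with 9 false calls. Only these genes of 13344 were changed, in the comparison of PC3 at 24 h. In the data 20.8% to 45.8% of genes were called with Siomycin, so the shares recovered do not carry over to the real comparisons. The number of arrays limits the precision.

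Identity genes and related lists were chosen with earlier results of these data known. In each list and comparison the named genes were the 2 called ones with the largest rise and the 2 with the largest fall. Replicate numbers did not pair the arrays. Alternatives covered background correction, centring of arrays on a median (over kept probes, or over all probes), probe filters and choice, array weights, the replicate block, the control arrays and leaving out arrays.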

Additional observations from a re-analysis of the deposited data

Results flagged for a closer look

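The results here are those in which a test of the difference itself found that the Siomycin effect was not the same at both times or in both lines. Each value is a difference of log2 effects with its SE, from limma with Benjamini-Hochberg adjustment over all genes.

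In PC3 the effect at 48 h minus that at 24 h was 1.20 ± 0.21 for SNAI2 (adjusted p = 0.00027), 0.31 ± 0.10 for CAV1 (adjusted p = 0.02) and -0.34 ± 0.12 for CD44 (adjusted p = 0.046). In LNCaP it was 0.80 ± 0.18 for KRT19 (adjusted p = 0.0067).

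The effect in PC3 minus that in LNCaP at 24 h was 1.63 ± 0.18 for KRT19 (adjusted p = 3.3e-06) and -0.79 ± 0.10 for CAV1 (adjusted p = 1.3e-05). At 48 h it was -0.88 ± 0.13 for CDH1 (adjusted p = 2.3e-05), 0.82 ± 0.18 for KRT19 (adjusted p = 0.00075) and -0.67 ± 0.12 for CD44 (adjusted p = 0.00016). The probes behind these CAV1 and CD44 values were below background on all LNCaP arrays. KRT19 was below background on the LNCaP Siomycin arrays of 24 h, so its 24 h and LNCaP time values are fitted ones.

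Among related genes called in opposite directions in the lines at 48 h, the effect in PC3 minus that in LNCaP was 1.42 ± 0.13 for TWIST1 (adjusted p = 2.4e-08) and -1.64 ± 0.23 for ITGA3 (adjusted p = 8.8e-06). The ITGA3 probe was below background in LNCaP with DMSO.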

How the results depend on the processing

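Over the 9 genes and 12 comparisons, 2081 of 2202 alternative values kept their direction and their side of the threshold, 68 lost a call, 50 gained one and 3 turned. The 3 were CDH1 in PC3 at 48 h with the 24 h DMSO arrays as control (0.13), and under median centring VIM in PC3 at 48 h (0.42) and the VIM difference between lines at 48 h (0.39). Of 1866 values of related genes 143 lost a call and 6 turned: with all-probe centring, CLDN7 (-0.065) and ITGA2 (-0.027) in PC3 at 48 h, and, when 24 h DMSO served as control, ID3 in PC3 (-0.54) and CTNNB1 (-0.12), ID3 (-0.23) and ID1 (-0.94) in LNCaP, all at 48 h. All-probe centring was chosen after seeing the data. Except where fewer genes or arrays entered the fit, the cause was not tested.

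The counts of identity genes called moved by 1.5 times or more as follows. Where probes had to be above background on all 24 arrays, KRT19, CAV1, CD44 and SNAI2 left the test, so that counts under this filter are of 5 genes in place of 9 and cannot be set against the others. In PC3 at 24 h 2 became 1 with median centring, 1 with all-probe centring 0 of the 5 genes with probes above background on all 24 arrays, and 3 with array weights, without both doubted arrays, with no background correction, with an offset of 50, with the authors' table and with the mean of a gene's probes. In PC3 at 48 h 5 became 3 with all-probe centring, 1 with probes above background on all arrays and 2 with the 24 h DMSO control. In LNCaP at 24 h 2 became 1 with either centring, with probes above background on all arrays and with array weights. In LNCaP at 48 h 3 became 1 with all-probe centring, 2 with an offset of 50, median centring, no filter on dim probes, the 12 LNCaP arrays alone, an intensity trend, the 24 h DMSO control or (of 5 genes) probes above background on all arrays, 6 with array weights and 5 without both doubted arrays. For time in PC3 3 became 1 with all-probe centring and with probes above background on all arrays, 2 with no filter on dim probes and with the mean of a gene's probes. For time in LNCaP 1 became 0 with all-probe centring, with probes above background on all arrays and with the 12 LNCaP arrays alone, and 2 with the mean of a gene's probes. Between lines at 24 h 2 became 1 with all-probe centring, 0 with probes above background on all arrays, and 3 with array weights, without both doubted arrays, with no background correction and with the authors' table. Between lines at 48 h 3 became 1 with probes above background on all arrays, and 5 with no background correction, with an offset of 50 and with the authors' table. In DMSO, probes above background on all arrays gave 5 for the lines at 24 h (9 before), 3 at 48 h (7 before) and 1 for time in PC3 (4 before). For time in LNCaP DMSO 0 became 1 with the mean of a gene's probes and without both doubted arrays. Moves within 1.5 times went both ways, among them 4 for time in PC3 with array weights, 4 in PC3 at 48 h with the mean of a gene's probes and 7 for the lines in DMSO at 24 h with all-probe centring.

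Leaving out 1 replicate at a time gave 1 to 1 genes in PC3 at 24 h, 4 to 5 in PC3 at 48 h, 2 to 3 in LNCaP at 24 h and 2 to 3 in LNCaP at 48 h. It gave 2 to 3 for time in PC3, 1 to 2 for time in LNCaP, 2 to 4 between lines at 24 h and 3 to 4 at 48 h. In DMSO it gave 7 to 9 and 7 to 7 for the lines, 4 to 4 for time in PC3 and 0 to 1 for time in LNCaP.

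Replicate numbers did not pair the arrays: over 24 pairs the correlations of deviations ran from -0.152 to 0.0409, and 5 arrays correlated best with their own number. With the replicate block the counts were 2, 5, 2 and 3 in the Siomycin comparisons, 3 and 1 for time, 2 and 3 between lines, and 9, 7, 4 and 0 in DMSO, the same as without the block.

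Counts over all genes moved by over 1.5 times for time in LNCaP (1187, against 682 with median centring, 157 with all-probe centring, 615 with the 12 arrays alone, 2047 with array weights and 1795 without both doubted arrays). For time in LNCaP DMSO the count was 73, against 31, 11, 19, 165 and 143 in the same order and 28 to 47 without 1 replicate. With all-probe centring it was 1411 in PC3 at 24 h (3066 before), 1305 in LNCaP at 24 h (2779 before) and 650 between lines at 24 h (1900 before). All-probe centring moved the median of all genes by -0.167 in PC3 at 48 h, by -0.195 for time in PC3, by -0.149 between lines at 48 h, by 0.101 for the lines in DMSO at 24 h and by -0.136 for time in PC3 DMSO. It split the calls into 266 higher and 2576 lower for time in PC3 (1260 and 2088 before), 1098 and 3347 between lines at 48 h (2534 and 3232 before) and 531 and 2243 for time in PC3 DMSO (1922 and 1852 before). Median centring moved the median by 0.121 in PC3 at 48 h, 0.122 for time in PC3, 0.15 between lines at 48 h and -0.13 for the lines in DMSO at 24 h. Signals near background, as of KRT19 and SNAI2 in LNCaP, are the least precise, and the offset understates their changes.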
